A study of Mus musculus with 44 samples.

Results

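The genes described here encode subunits of the MLL and Set1 complexes, the enzymes that methylate histone H3 at lysine 4. All 10 listed genes were found among the 27095 rows of the start-site count table: the catalytic subunits Kmt2a, Kmt2b, Kmt2c, Kmt2d, Setd1a and Setd1b, the shared core subunits Wdr5, Rbbp5 and Ash2l, and the cofactor Men1. They were chosen by name, and for each the start-site row in every library and the Snai1 peaks within 5 kb of either annotated gene end were taken.

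The samples were HPC7 cells, a line of mouse blood progenitors kept in culture with stem cell factor. All cells carried an MSCV-IRES-GFP retrovirus, with no insert (empty vector, EV), with wild-type Snai1 cDNA (WT) or with a mutant Snai1 cDNA (MUT) that encodes alanine for phenylalanine at residue 5 and is labelled as impaired in its interaction with the demethylase Lsd1. Expression came from the vector, in cells sorted for GFP 1 week after transduction and then expanded, so each construct is a transduced pool of 1 cell line. For each construct there were 3 H3K4me2 and 3 H3K4me1 libraries, 2 IgG libraries came from WT cells, and Snai1 ChIP had 4 technical replicates per construct that are given as 1 peak list.

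In mammals 6 related enzymes share the writing of H3K4 methylation. MLL1 and MLL2 (genes Kmt2a and Kmt2b) act with menin (Men1) at defined sets of promoters, MLL3 and MLL4 (Kmt2c and Kmt2d) place H3K4me1 at enhancers, and SETD1A and SETD1B carry much of the trimethylation at active promoters. WDR5, RBBP5 and ASH2L form, with DPY30, the core on which these catalytic subunits depend. Kmt2a is known in blood for its role in stem cells and for its fusions in leukaemia. Snai1 is a zinc finger repressor that reads the E-box CAGGTG and recruits Lsd1, which removes H3K4me1 and H3K4me2.

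The promoters that a Snai1 peak overlapped are shown first, since they are the places where a measured Snai1 signal meets a start of one of these genes, together with 1 promoter without any peak. They are RefSeq sequences of the GRCm38.p6 assembly, from 250 bases before to 50 bases after the annotated start, in the direction of transcription, and capitals mark bases inside a MUT peak. Setd1a lies at chr7:127777139-127777438 (plus strand), Wdr5 at chr2:27514897-27515196 (plus strand), Rbbp5 at chr1:132477117-132477416 (plus strand) and Kmt2c, the promoter without a peak, at chr5:25498734-25499033 (minus strand).
Setd1a: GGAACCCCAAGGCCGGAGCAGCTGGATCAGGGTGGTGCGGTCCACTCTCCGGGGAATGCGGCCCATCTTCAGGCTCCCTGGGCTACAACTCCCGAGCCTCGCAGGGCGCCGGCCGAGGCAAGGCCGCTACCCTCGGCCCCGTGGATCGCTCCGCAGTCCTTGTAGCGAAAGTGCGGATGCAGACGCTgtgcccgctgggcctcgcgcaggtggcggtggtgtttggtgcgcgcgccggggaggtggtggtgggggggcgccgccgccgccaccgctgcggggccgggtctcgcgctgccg
Wdr5: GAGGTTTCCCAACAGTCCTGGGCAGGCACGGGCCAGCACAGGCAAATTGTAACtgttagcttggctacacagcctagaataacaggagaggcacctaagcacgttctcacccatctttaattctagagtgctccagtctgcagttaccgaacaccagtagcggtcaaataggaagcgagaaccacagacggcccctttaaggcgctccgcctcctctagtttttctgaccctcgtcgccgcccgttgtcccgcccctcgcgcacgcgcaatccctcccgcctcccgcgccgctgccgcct
Rbbp5: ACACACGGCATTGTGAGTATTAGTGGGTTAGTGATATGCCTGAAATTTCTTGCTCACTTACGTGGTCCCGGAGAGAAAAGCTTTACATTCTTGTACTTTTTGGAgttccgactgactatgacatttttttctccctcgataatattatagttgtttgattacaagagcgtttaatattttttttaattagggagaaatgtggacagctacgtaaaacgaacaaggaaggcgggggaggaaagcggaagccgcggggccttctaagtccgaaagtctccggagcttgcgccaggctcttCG
Kmt2c: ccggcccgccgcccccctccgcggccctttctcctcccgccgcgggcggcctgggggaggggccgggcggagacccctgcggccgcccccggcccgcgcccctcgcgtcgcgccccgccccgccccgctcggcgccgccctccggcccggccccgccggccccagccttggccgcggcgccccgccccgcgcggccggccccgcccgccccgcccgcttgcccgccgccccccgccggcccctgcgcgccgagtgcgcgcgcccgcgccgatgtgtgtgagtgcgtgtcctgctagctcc
The MUT peaks covered 187 bases of the Setd1a promoter, 53 of the Wdr5 promoter and 106 of the Rbbp5 promoter, the last in 2 stretches from 2 peaks. The WT peak at Wdr5 covered 41 bases, and no WT peak reached the other promoters shown. The motif CAGGTG, or CACCTG as it reads on the other strand, was searched in the promoters of the 7 genes that matched the RefSeq promoter table. Only Setd1a held it, as caggtg at chr7:127777345-127777350, with its first base at position -44 from the start. There it lay outside the MUT peak, with 19 bases between them, and is therefore in lower case. Of all 32851 RefSeq promoters of this length 20.2% held the motif. The Kmt2c promoter had a GC content of 88.0%, against a median of 52.7% over all promoters, and that of Rbbp5 had 44.0%. Kmt2b, Setd1b and Ash2l were not matched.

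Depth allowed all 10 windows to be measured in every library. Column totals were 8694515 to 18199945 reads for H3K4me2, 4042976 to 8813537 for H3K4me1, and 2714255 and 3355479 for IgG. The members' windows held 249 to 4518 reads in H3K4me2 libraries, 167 to 1558 in H3K4me1 libraries and 87 to 202 in IgG libraries. Levels are reads in the window per 1000000 reads of the column total (CPM). The name of the deposited counts gives 5 kb around the start, and no window coordinates are given. Setting levels beside each other between genes therefore assumes windows of equal width, which could not be checked. As a check of the cell type, 10 of 11 windows of haematopoietic progenitor genes had more H3K4me2 than IgG in WT cells (median log2 ratio 1.30), while none of 6 lymphoid, 5 epithelial and 4 muscle or neural marker windows did. The replicate 1 libraries of both marks stood apart from replicates 2 and 3, and their values are given separately where a comparison rests on them. Replicates 2 and 3 of EV H3K4me1 differed by less than counting error (variance over counting variance 0.980) and were counted as 1 sample in tests, so that group has n = 2 there. In the other groups of both marks this ratio was 1.18 to 2.30 for replicates 2 and 3, which were kept as separate samples. For pairs with replicate 1 it was 9.49 to 17.7, so the spread within a group lay mostly between replicate 1 and the others. The labels number the replicates and do not say that they are separate transductions, so p-values measure the spread between these libraries, which may be technical.

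At 9 of the 10 genes the start-site window carried more H3K4me2 than IgG signal in WT cells, and at Ash2l it carried less. Over all windows tested, 36.1% passed as higher than IgG and 55.7% as lower (edgeR quasi-likelihood test, adjusted p below 0.05). The members' median log2 ratio was 1.35, against -1.92 over all windows. The 3 WT libraries averaged 233 ± 12.5 CPM at Setd1b (SD, n = 3) against 46.1 ± 19.9 in IgG (SD, n = 2), a log2 ratio of 2.32 (edgeR adjusted p = 3.5e-06). This places Setd1b at percentile 99.9 of all windows. Kmt2d (log2 ratio 1.94) and Kmt2a (1.79), an enhancer and a promoter methyltransferase, stood at percentiles 99.1 and 98.2. The lowest ratio among the 9 was that of Setd1a, 0.86 (SE 0.13, edgeR adjusted p = 3.5e-05), so the paralogues Setd1a and Setd1b marked the lower and upper limits of the 9.

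Ash2l, a core subunit shared by all the complexes, stood apart from the other 9 members. Its H3K4me2 level was 21.6, 27.7 and 32.9 CPM in EV replicates 1 to 3, 22.2, 25.3 and 30.9 CPM in WT, and 19.3, 33.5 and 35.6 CPM in MUT, all below both IgG libraries (53.9 and 50.5 CPM). The WT libraries averaged 26.2 ± 4.40 CPM (SD, n = 3) against 52.2 ± 2.45 in IgG (SD, n = 2), a log2 ratio of -1.0 (SE 0.19, edgeR adjusted p = 0.00023). Its IgG count was high for a window, at percentiles 88.2 and 90.3 of the 2 IgG libraries, and its H3K4me2 level lay at percentiles 55.6 to 59.3. The call as lower depended on the scaling: with TMM factors in place of column totals the Ash2l ratio was -0.01 (edgeR adjusted p = 0.96), while the median of all windows moved from -1.92 to -0.94 and the other 9 members still passed as higher. The table gives a window by gene ID, and which start the Ash2l window covers was not tested. Among other genes of these complexes, described below, Dpy30 (log2 ratio -2.85) and Ncoa6 (-3.42) were also below IgG in H3K4me2.

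H3K4me1 was higher than IgG at 8 of the 10 genes, where 27.7% of all windows were, and lower at none, where 48.4% of all windows were. The members' median log2 ratio was 0.80 and that of all windows -0.44. Setd1b again led (137 ± 16.5 CPM, SD, n = 3, log2 ratio 1.56), followed by Men1 (108 ± 9.90 CPM, 1.18) and Wdr5 (90.4 ± 0.453 CPM, 1.00). Kmt2c, whose product is itself an H3K4 monomethyltransferase, did not pass: its WT libraries averaged 45.3 ± 8.24 CPM (SD, n = 3) against 40.1 ± 5.19 in IgG (SD, n = 2), a log2 ratio of 0.17 (95% interval -0.27 to 0.60, edgeR adjusted p = 0.45). At Ash2l the ratio was -0.21 (95% interval -0.60 to 0.18, edgeR adjusted p = 0.30). With TMM factors Kmt2c passed (log2 ratio 0.68, edgeR adjusted p = 0.0092) and the ratio of Ash2l turned positive (0.30), and without IgG replicate 2 Kmt2b, at 0.61 with all libraries, no longer did (0.48, edgeR adjusted p = 0.057). Without WT replicate 1, Ash2l passed as lower (-0.37, edgeR adjusted p = 0.018).

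**Figure D1:**
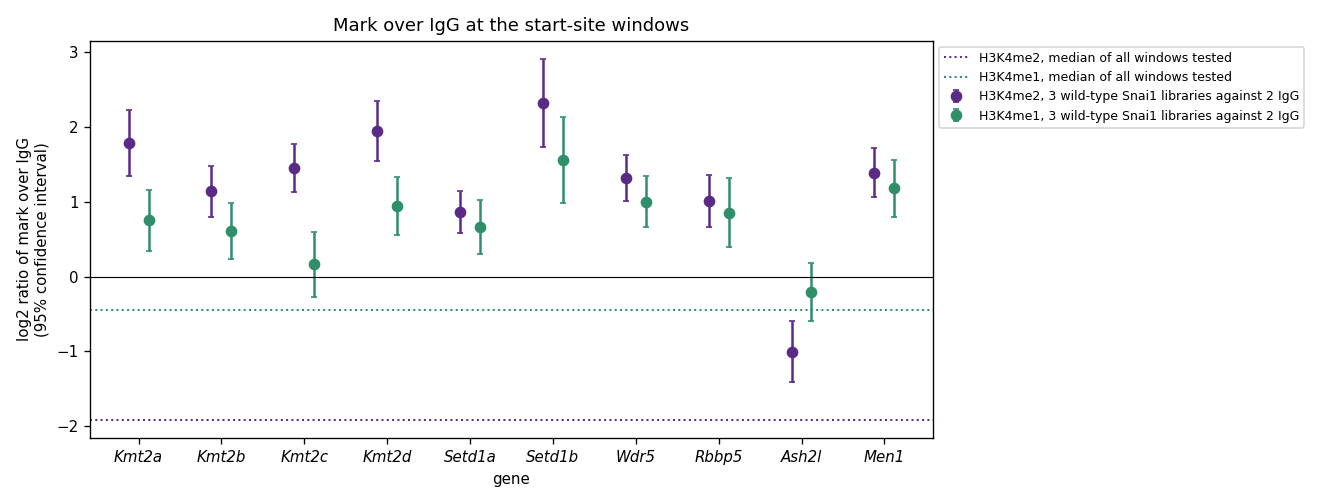
Log2 ratio of H3K4me2 and H3K4me1 over IgG (vertical axis) at the 10 start-site windows in WT cells, with 95% confidence intervals from edgeR (3 libraries of each mark against 2 of IgG), and dotted lines at the medians of all windows tested. 9 genes lie above 0 for H3K4me2, Ash2l lies at -1.0, and the H3K4me1 interval spans 0 at Kmt2c and Ash2l.

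The order of the H3K4me2 levels was steady across the 9 libraries. Setd1b ranked first in every library (lowest 205, median 231, highest 248 CPM) and Ash2l last (19.3, 27.7, 35.6 CPM). Below Setd1b came Kmt2a (141, 173, 191 CPM) and Kmt2d (162, 172, 181 CPM), which overlapped, Kmt2a being the higher in 3 of 9 libraries. These 3 catalytic genes took the first 3 ranks in each library. Next was Men1 (119, 130, 144 CPM), higher than Rbbp5 in all 9 libraries although their ranges overlapped. Rbbp5 (104, 114, 135 CPM), Wdr5 (105, 113, 119 CPM), Kmt2b (86.8, 107, 114 CPM) and Kmt2c (93.3, 107, 116 CPM) could not be separated by their spread. The Rbbp5 window may hold reads of 6030442K20Rik, which has no row of its own and starts 303 bases away on the other strand. Setd1a (63.9, 79.9, 84.8 CPM) lay below them with no overlap, and so did Ash2l below Setd1a.

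In H3K4me1 the order was less clear. Setd1b (lowest 80.6, median 127, highest 193 CPM), Rbbp5 (78.4, 113, 123 CPM) and Men1 (96.4, 113, 127 CPM) headed it with overlapping ranges. Wdr5, Kmt2d, Kmt2a, Kmt2b and Setd1a followed, with medians of 90.9 to 71.6 CPM and each overlapping the next. The only gap between neighbours was that between Setd1a (62.0 CPM at the lowest) and Kmt2c (51.6 CPM at the highest), and Kmt2c overlapped Ash2l (40.2, 42.4, 54.1 CPM).

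**Figure D2:**
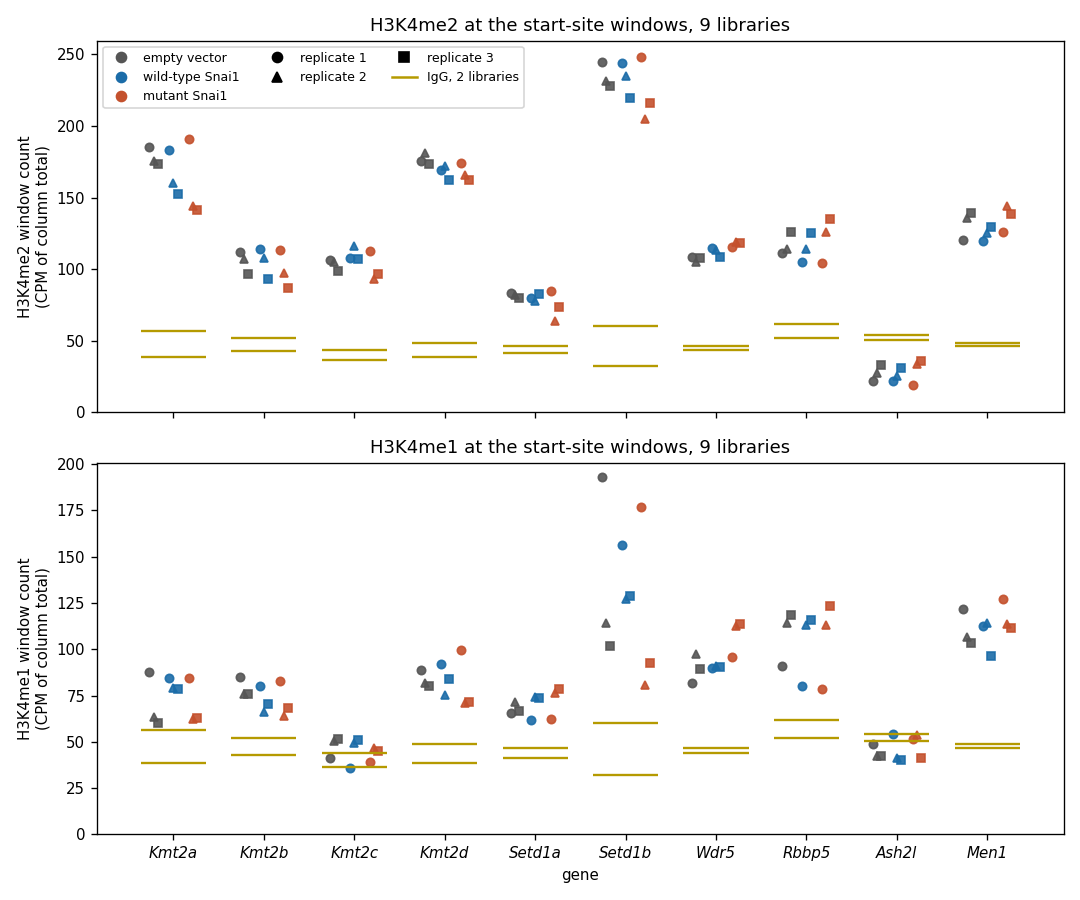
CPM of the column total (vertical axes, from 0) of H3K4me2 (top) and H3K4me1 (bottom) at each gene, 1 point per library, coloured by construct and shaped by replicate, with lines for the 2 IgG libraries. H3K4me2 at Setd1b sits between 205 and 248 CPM and at Ash2l between 19.3 and 35.6 CPM, below both IgG lines, and H3K4me1 at Setd1b is higher in the replicate 1 libraries than in the others.

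The genes fell into different balances of the marks, taken in each pair of libraries of the same construct and replicate number as log2(H3K4me2 CPM + 1) minus log2(H3K4me1 CPM + 1). This is a description with no test. Kmt2a (median 1.16 over 9 pairs), Kmt2c (1.10), Kmt2d (1.10) and Setd1b (0.88) had the highest values, all 4 being catalytic genes. Kmt2b (0.44), Men1 (0.31), Wdr5 (0.27), Setd1a (0.19) and Rbbp5 (0.13) were closer to 0, and Ash2l was below it (-0.66). Setd1b was lower in the replicate 1 pairs (0.34, 0.64 and 0.49 in EV, WT and MUT) than in the others (0.77 to 1.33). In EV replicate 1 it lay below Wdr5 (0.41), Kmt2b (0.40) and Setd1a (0.35). Kmt2c combined a low H3K4me1 level, 35.9 to 51.6 CPM, with an H3K4me2 level in the middle of the set, and its window may share reads with 4831440E17Rik, whose start is 1014 bases away. The median of all windows lay between -0.37 and -0.19 in the 9 pairs, and 8 or 9 of the 10 members were above 0 in each pair, against 35.4 to 39.7% of all windows.

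**Figure D3:**
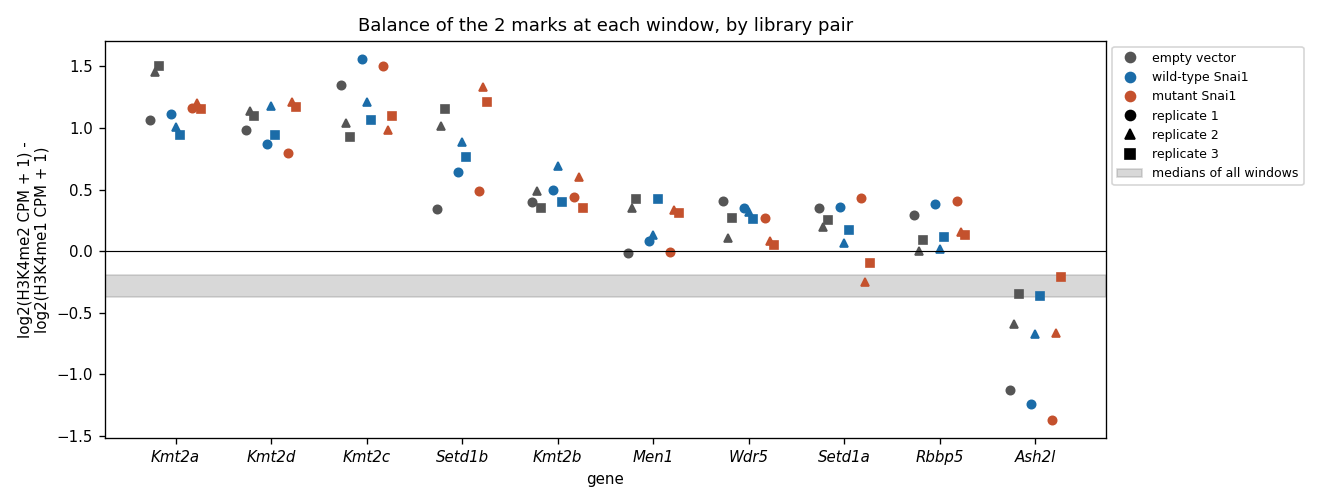
Balance of the marks, log2(H3K4me2 CPM + 1) minus log2(H3K4me1 CPM + 1) (vertical axis), at each gene in 9 pairs of libraries, coloured by construct and shaped by replicate, with a grey band over the medians of all windows. Kmt2a, Kmt2d and Kmt2c stay above 0.80 in every pair, and Ash2l stays below -0.21.

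Replicate 1 stood apart from replicates 2 and 3 in both marks and in all constructs. For H3K4me2 the 3 replicate 1 libraries did not overlap the 6 others at 5 of the 10 genes, against 16.5% of all windows. Kmt2a (183 to 191 CPM in replicate 1, 141 to 176 in the others), Kmt2b (112 to 114, 86.8 to 108) and Setd1b (244 to 248, 205 to 235) were higher in replicate 1. Rbbp5 (104 to 112 CPM, 114 to 135) and Ash2l (19.3 to 22.2 CPM, 25.3 to 35.6) were lower. Of these 5, the catalytic genes were the higher ones and the core genes the lower ones. In H3K4me1 7 of the 10 genes did not overlap, against 24.9% of all windows. The widest was Setd1b, with 156 to 193 CPM in replicate 1 and 80.6 to 129 in the others (log2 difference 0.71), and Rbbp5 was lower in replicate 1 (78.4 to 91.1 CPM against 113 to 123). The catalytic genes did not share a direction in this mark. Kmt2a, Kmt2b and Kmt2d were higher in replicate 1, but Kmt2c (35.9 to 41.4 CPM against 44.8 to 51.6) and Setd1a (62.0 to 65.5 CPM against 66.8 to 78.7) were lower. Since the labels do not say what sets the numbers apart, the members' medians within replicate 1 and within replicates 2 and 3 are given beside each comparison of constructs. The same medians and sign counts were not taken over all windows.

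The comparison of WT with EV asks whether Snai1 changed H3K4 methylation at the genes of its writers. No member passed in H3K4me2, where 0.00388% of the 25742 windows tested did (1 window), nor in H3K4me1, where 0.0% of 25728 did (edgeR adjusted p below 0.05). Unadjusted p was below 0.05 at 1884 windows in H3K4me2 and 742 in H3K4me1, none of them a member, and DESeq2 called 74 and 4 windows, again none of them a member. Blocking on replicate number gave 5 and 2 windows, and no member. The members' median log2 fold change in H3K4me2 was 0.04 (all windows -0.01), and their 95% intervals stayed between -0.48 and 0.50. In H3K4me1 the median was 0.00 (all windows -0.02), with intervals from -0.98 to 0.73. Within replicate 1 and within replicates 2 and 3 the medians were -0.01 and 0.09 in H3K4me2, with the same sign at 5 of 10 genes, and -0.14 and 0.06 in H3K4me1, with the same sign at 3 of 10.

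Kmt2c, the MLL3 gene, had the largest H3K4me2 difference of the members between WT and EV. Its level was 107, 105 and 99.0 CPM in EV replicates 1 to 3 and 108, 116 and 107 CPM in WT. The WT libraries were all above the EV libraries, by 0.16 on the log2 scale (SE 0.13, edgeR adjusted p = 0.87), most of it within replicates 2 and 3 (0.24) and little within replicate 1 (0.01). Kmt2d, the MLL4 gene, had 176, 181 and 173 CPM in EV and 170, 172 and 162 CPM in WT. Here every WT library was lower on column totals, but after TMM scaling the log2 fold change was -0.00 (SE 0.11, edgeR adjusted p = 1.0). These were the 2 members whose libraries did not overlap, against 13.5% of all windows. In H3K4me1 no member's libraries were apart (14.5% of all windows).

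MUT against EV gave the same count. No member passed in either mark, with 0.0% of windows called in each (unadjusted p below 0.05 at 1274 windows in H3K4me2 and 415 in H3K4me1, no member among them, DESeq2 6 and 0 windows). The members' medians were -0.06 in H3K4me2 and -0.02 in H3K4me1, beside 0.03 and -0.00 over all windows. Their 95% intervals ran from -0.49 to 0.56 in H3K4me2 and from -1.18 to 0.64 in H3K4me1. Within replicate 1 and within replicates 2 and 3 the H3K4me2 medians were 0.10 and -0.17, so that 1 of 10 genes kept its sign, and the H3K4me1 medians were 0.07 and -0.02, with the same sign at 6 of 10. The widest interval belonged to Setd1b in H3K4me1, whose level was 193, 114 and 102 CPM in EV replicates 1 to 3 and 177, 80.6 and 92.8 CPM in MUT.

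Wdr5, the subunit that binds the histone tail and docks the catalytic subunits, was the only member whose MUT samples lay apart from EV in both marks, on a chromosome whose median window was also higher in MUT. In H3K4me2 it had 109, 105 and 108 CPM in EV and 115, 119 and 118 CPM in MUT. The log2 fold change was 0.12 (SE 0.10, edgeR adjusted p = 0.95), 0.17 within replicate 1 and 0.09 within replicates 2 and 3. The median over all windows of chromosome 2, where Wdr5 lies, was 0.16 in this comparison, which leaves -0.04 for Wdr5 after subtraction. In H3K4me1 it had 81.6, 97.2 and 89.6 CPM in EV, the last 2 being counted as 1 sample, and 95.6, 112 and 114 CPM in MUT. Counted that way, every MUT sample was higher, with a log2 fold change of 0.29 (95% interval -0.07 to 0.65, edgeR adjusted p = 1.0), although EV replicate 2 alone was above MUT replicate 1. The chromosome 2 median was 0.14 there, which leaves 0.15. Libraries were apart at 7.54% of all windows in H3K4me2 and 9.11% in H3K4me1. Wdr5 was again the single member apart between WT and MUT in each mark, with 115, 113 and 108 CPM in WT H3K4me2 and 90.0, 90.9 and 90.5 CPM in WT H3K4me1, both lower than MUT on column totals. After TMM scaling the difference WT minus MUT was 0.02 in H3K4me2 and -0.22 in H3K4me1 (SE 0.15, edgeR adjusted p = 1.0), where the chromosome 2 median was -0.17 and -0.05 was left after subtraction. The part of the chromosome-wide shift in these differences was not tested.

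WT against MUT, the contrast of Snai1 with and without an intact residue 5, likewise gave 0 members past the threshold, with 0.0% of windows called in either mark and libraries apart at 10.1% of windows in H3K4me2 and 8.82% in H3K4me1. Unadjusted p was below 0.05 at 2548 and 1347 windows with no member among them. DESeq2 called 48 and 29 windows and a fit blocked on replicate number 12 and 2, no member among them. The members' median was 0.10 in H3K4me2 (all windows -0.04) and 0.02 in H3K4me1 (all windows -0.01), with 95% intervals from -0.56 to 0.48 and from -0.57 to 0.98. In H3K4me2, 8 of 10 members were on the side of WT, the 6 catalytic genes with 0.08 to 0.20 and Wdr5 and Rbbp5 with 0.02 and 0.01, against 45.7% of all windows. With column totals in place of TMM, Wdr5 (-0.07) and Rbbp5 (-0.08) turned to the side of MUT, which left 6 of 10 members and 34.6% of all windows on the side of WT.

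The replicates disagreed on this contrast. Within replicate 1 the members' median H3K4me2 difference, WT minus MUT, was -0.11, and within replicates 2 and 3 it was 0.23. None of the 10 genes had the same sign in both. The share of all windows that kept their sign was not taken, so this split cannot be read as particular to the members. Over all windows compared, MUT H3K4me2 replicate 1 differed from MUT replicates 2 and 3 by 15.1 and 14.3 times counting variance. Kmt2a had 183 CPM in WT and 191 in MUT in replicate 1, but 160 and 152 in WT and 144 and 141 in MUT in replicates 2 and 3. Setd1a had 79.8 CPM in WT and 84.8 in MUT in replicate 1, but 77.6 and 82.9 in WT and 63.9 and 73.4 in MUT in the other 2. In both genes MUT was the higher in replicate 1 and the lower in each of the others. H3K4me1 showed medians of -0.25 within replicate 1 and 0.13 within replicates 2 and 3, with the same sign in 2 of 10 genes.

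A single library decided the count. When MUT H3K4me2 replicate 1 was left out, 5 members passed as higher in WT than in MUT, namely Setd1a (log2 fold change 0.40, edgeR adjusted p = 0.027), Kmt2c (0.39, adjusted p = 0.028), Kmt2a (0.38, adjusted p = 0.029), Kmt2b (0.36, adjusted p = 0.049) and Setd1b (0.32, adjusted p = 0.041). In the same fit 4289 windows passed, 16.6% of those tested, of which 2741 (10.6%) were higher in WT and 1548 (6.0%) lower. All 5 are catalytic genes, and Kmt2d, the remaining catalytic gene, had 0.21 (adjusted p = 0.094). That fit sets WT replicates 1 to 3 against MUT replicates 2 and 3 only, so the replicate numbers are not balanced in it. These 2 MUT libraries differed by little more than counting error (variance over counting variance 1.31, against 15.1 and 14.3 with replicate 1). Counting them as 2 samples may make the adjusted p-values of that fit too small. Kmt2a also passed as lower in MUT than in EV (-0.42, edgeR adjusted p = 0.046), where 2.4% of windows were called, 1.57% as lower and 0.829% as higher. With replicates 2 and 3 summed and the batch as a term, which keeps replicate 1, no member passed in any comparison.

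**Figure D4:**
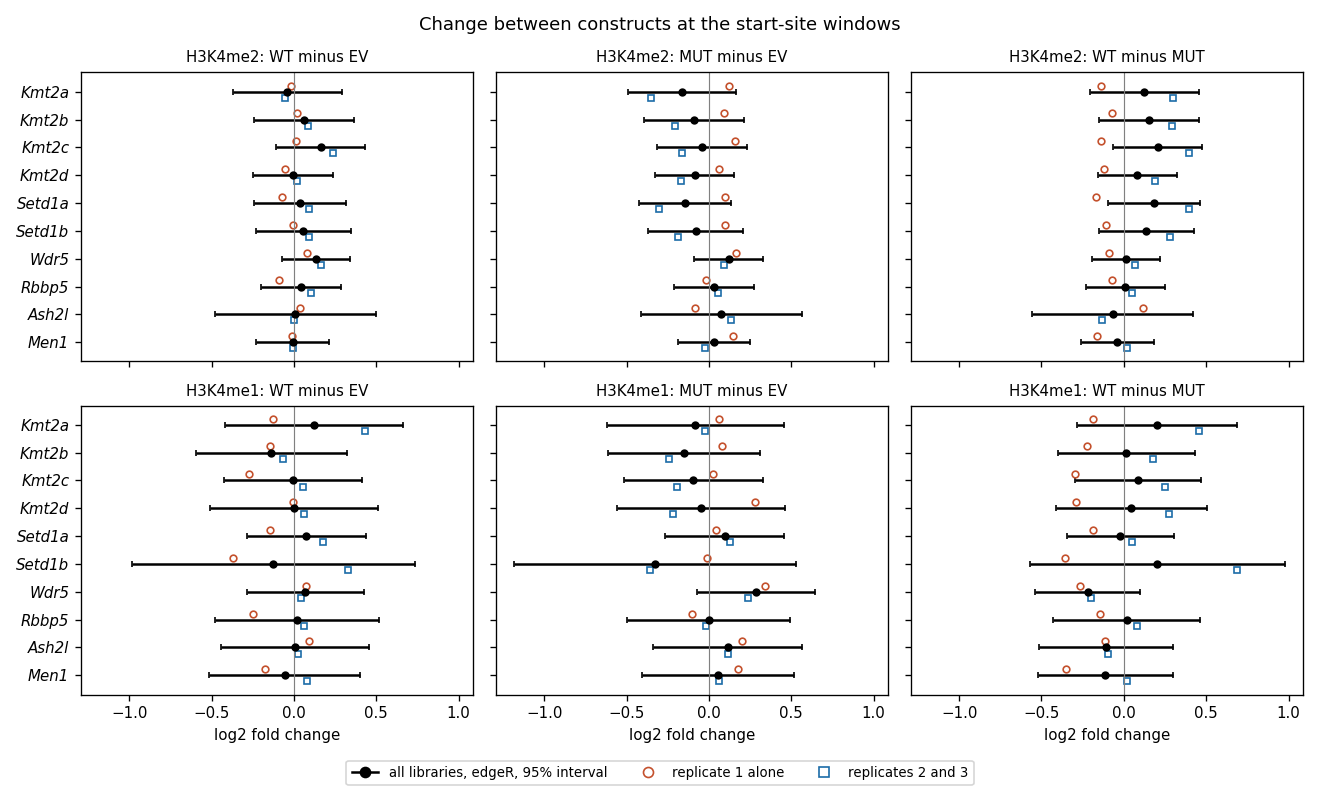
Log2 fold changes (horizontal axes) of the 10 genes in 6 comparisons, with H3K4me2 in the top row and H3K4me1 in the bottom row, filled points with 95% intervals from edgeR over all libraries, open circles for replicate 1 alone and open squares for replicates 2 and 3. All 60 intervals span 0, and in WT minus MUT for H3K4me2 the circles and squares lie on opposite sides of 0 at every gene.

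Other genes of the same complexes were taken as a list of 11: the core subunit Dpy30, the Set1 partners Cxxc1, Wdr82, Bod1l and Hcfc1, the MLL1 and MLL2 partners Hcfc2 and Psip1, and the MLL3 and MLL4 partners Kdm6a, Ncoa6, Paxip1 and Pagr1a. In WT cells 8 of the 11 had more H3K4me2 than IgG and 2 had less, where 36.1% of all windows passed as higher and 55.7% as lower. The 8 ranged from Psip1 (56.8 ± 3.12 CPM, SD, n = 3, log2 ratio 0.62) to the X-linked demethylase gene Kdm6a (66.1 ± 1.84 CPM, 1.79). Dpy30 (5.76 ± 1.07 CPM against 41.5 ± 4.34 in IgG) and the coactivator Ncoa6 (3.81 ± 0.235 CPM against 41.2 ± 19.9) were the 2 below it. As for Ash2l, which start the Dpy30 and Ncoa6 windows cover was not tested. Cxxc1, the CpG-binding subunit of the Set1 complexes, did not pass (log2 ratio 0.39, edgeR adjusted p = 0.060). For H3K4me1 4 of the 11 were higher and 2 were lower, beside 27.7% and 48.4% of all windows. Hcfc2 led with 110 ± 4.34 CPM (log2 ratio 1.36).

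None of the 11 partners passed between constructs in either mark. The smallest p in H3K4me2 belonged to Ncoa6 in WT against MUT (log2 fold change -0.81, SE 0.35, edgeR adjusted p = 0.50), on 3.81 ± 0.235 CPM in WT and 7.35 ± 3.67 in MUT (SD, n = 3). Next was Bod1l in the same comparison (0.26, SE 0.11, edgeR adjusted p = 0.50), followed by Cxxc1 in MUT against EV (-0.22, SE 0.11, edgeR adjusted p = 0.95) and Dpy30 in WT against EV (0.49, SE 0.25, edgeR adjusted p = 0.74). Each of these changed sign between replicate 1 and replicates 2 and 3. The values were 0.24 and -1.15 at Ncoa6, -0.05 and 0.42 at Bod1l, 0.01 and -0.35 at Cxxc1, and -0.03 and 0.77 at Dpy30. In H3K4me1 the smallest were Ncoa6 (-0.80, SE 0.49) and Cxxc1 (0.21, SE 0.14) in WT against MUT. Within replicate 1 and within replicates 2 and 3 Ncoa6 had 0.52 and -1.09, and Cxxc1 0.09 and 0.28. Pagr1a had -0.25 in MUT against EV and -0.20 in WT against EV.

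Over the 18 libraries the windows that varied most like the mean of the members, centred within each mark, were Gamt (Pearson r 0.93), Pdlim7 (0.93) and Arhgap45 (0.92) among 7681 windows ranked. The members did not vary as 1 profile: the r of each with the mean of the others was negative at Rbbp5 (-0.85), Wdr5 (-0.76), Kmt2c (-0.68), Setd1a (-0.52) and Ash2l (-0.47), and was highest at Kmt2d (0.59). The points share libraries and depth, including the split of replicate 1, and the r is a description with no p.

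Snai1 peaks near these genes were 1 in the EV list, 6 in the WT list and 16 in the MUT list, counting peaks within 5 kb of a gene end. The lists themselves held 137, 2929 and 12037 peaks. Fold enrichment and -log10 q are the authors' own values for each peak, and with 1 list per construct there is no replicate check. In the EV list 1 of 10 genes had such a peak (0.492% of 25204 annotated genes), in the WT list 5 (7.8%) and in the MUT list 8 (28.4%). Among the 9216 annotated genes whose H3K4me2 window passed above IgG, a class that held 9 of the members, the shares were 1.09% for EV, 16.4% for WT and 57.5% for MUT. Of those 9 members 0, 4 and 7 had such a peak. The members were not tested against these shares. With a -log10 q of at least 5 the WT count fell to 3 (Rbbp5, Ash2l and Men1), beside 6.63% of all annotated genes. All 5 genes with a WT peak (Setd1a, Wdr5, Rbbp5, Ash2l and Men1) also had a MUT peak, and Kmt2a, Kmt2d and Setd1b had a MUT peak alone. Of the 6 WT peaks 5 overlapped a MUT peak, as did 84.9% of the 2929 WT peaks. Of the 16 MUT peaks 5 overlapped a WT peak, as did 20.7% of the 12037 MUT peaks.

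Of the 7 genes with an annotated start, Wdr5 and Rbbp5 had a WT peak within 1 kb of it, where 5.31% of genes did. Setd1a and Kmt2d joined them in the MUT list, where 22.5% of genes did, and no member did in the EV list (0.347%). Both WT genes encode core subunits, but the core gene Ash2l had no annotated start and could not be counted. With a -log10 q of at least 5 the WT list kept a peak at Rbbp5 and not at Wdr5. At Wdr5 the WT peak was chr2:27514727-27514937 (4.44-fold, -log10 q 2.95), with its summit 333 bases before the start. The MUT list held 4 peaks around that start, with summits 593 and 226 bases before it and 896 and 1300 bases after it, the highest being 7.00-fold. Wdr5 thus had the most MUT peaks of the 10 genes, 5 in all. At Rbbp5 the WT peak was chr1:132477584-132477906 (6.41-fold, -log10 q 13.5), with its summit 404 bases after the start. There the MUT peaks had summits 312 bases before the start (4.83-fold) and 181 bases after it (4.39-fold). The first of these lay 9 bases from the start of 6030442K20Rik on the other strand.

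Setd1a was the only gene of the 7 searched with the E-box in its promoter. A MUT peak that did not reach the E-box covered part of this promoter, chr7:127776971-127777325 (7.00-fold, -log10 q 11.9), with the summit 229 bases before the start. The WT peak of Setd1a was at the far end of the gene, chr7:127800953-127801270 (3.89-fold), and lay 472 bases from the start of Hsd3b7, where 2 MUT peaks also lay. At Kmt2d the MUT peak chr15:98872008-98872397 (5.54-fold) had its summit 1086 bases before the annotated start of the promoter used here. It lay inside the annotated gene all the same, with the summit 1786 bases from the gene's upper end.

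Many of the other peaks counted for a member lay at the start of a neighbour. The MUT peak of Kmt2a, chr9:44799084-44799470 (9.92-fold), had its summit 10 bases from the start of Tmem25 and 4098 bases past the end of Kmt2a. A second MUT peak of Kmt2d was 43 bases from the start of Prkag1, and another at Wdr5 was 188 bases from that of Gm13421. The strongest WT peak of the set by fold enrichment, chr19:6340730-6341054 (13.5-fold, -log10 q 32.5), crossed the end of Men1 with its summit 264 bases from the start of Map4k2, and the MUT peak there was 12.5-fold. Men1 also had a WT peak with its summit 3500 bases before its first start (6.35-fold) that no MUT peak overlapped. The distance rule counts a peak for every gene with an end in reach, and to which gene a peak belongs was not tested.

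The peak beside Ash2l was in all 3 lists. Its EV form, chr8:25848461-25848766, was 10.4-fold (-log10 q 21.5), its WT form 7.51-fold and its MUT form 6.02-fold, with summits 821 to 925 bases outside the upper end of the gene. It is the only member peak of the EV list, which comes from cells without the Snai1 insert. A second site inside Ash2l, 6496 to 6501 bases from the same end, was in the WT list (6.08-fold) and the MUT list (7.82-fold) and not in the EV list. Setd1b had 2 MUT peaks inside the gene (9.04-fold and 6.42-fold), beside 1 past its upper end, chr5:123171520-123171892 (12.2-fold). Kmt2a had 1 inside (5.83-fold). Kmt2c, 227061 bases long, had no peak within 5 kb of its ends or inside it in any list, and neither did Kmt2b within 5 kb.

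**Figure D5:**
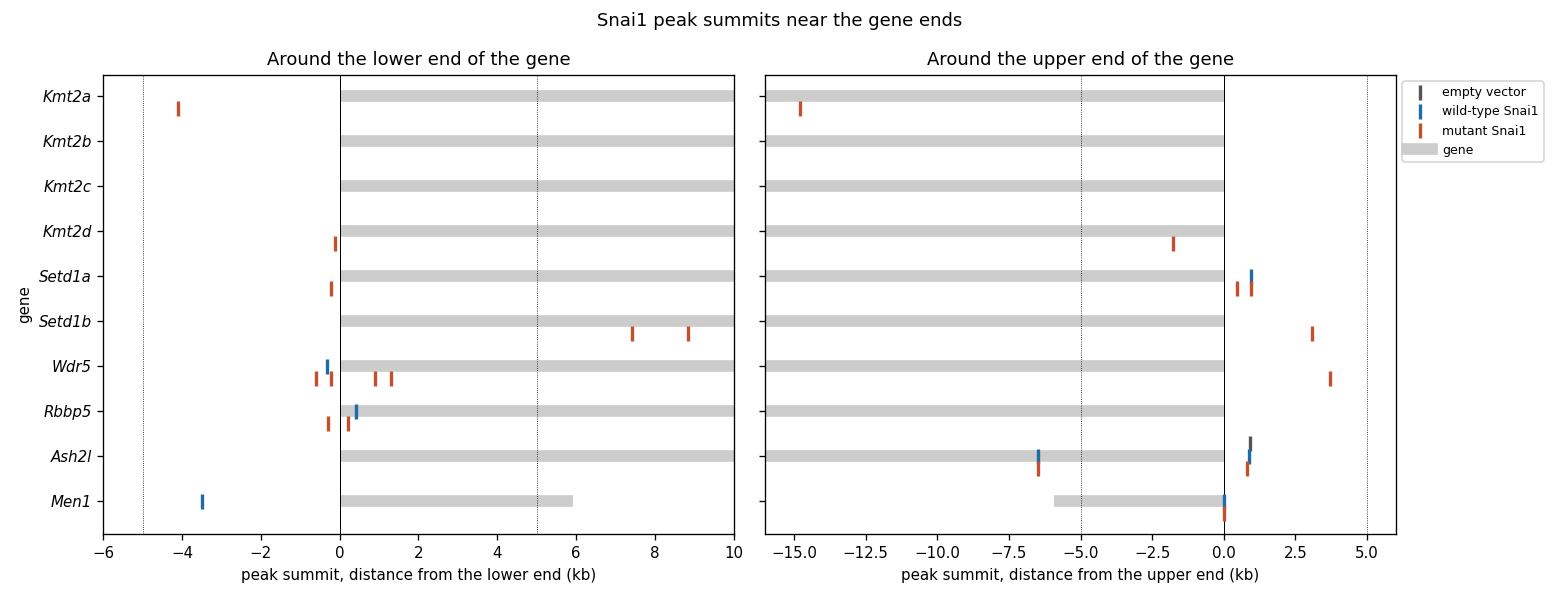
Distance of Snai1 peak summits (horizontal axes, kb) from the lower-coordinate end (left) and upper-coordinate end (right) of each gene, coloured by list, with grey bars for the gene and dotted lines at 5 kb. All Rbbp5 peaks and all but 1 MUT peak of Wdr5 lie within 1.3 kb of the lower end, where these genes start, and the peak outside Ash2l is the only one drawn for all 3 lists.

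The H3K4 marks were set beside the peaks as a last description. The 5 genes with a WT peak had H3K4me2 log2 fold changes, WT minus EV, of -0.01 to 0.13 (median 0.04), and the 5 without one had -0.04 to 0.16 (median 0.06), so the groups overlapped. For MUT minus EV the 8 genes with a MUT peak had -0.16 to 0.12 (median -0.02) and the 2 without one, Kmt2b and Kmt2c, had -0.09 and -0.04. In H3K4me1 the same values were -0.33 to 0.29 (median 0.03) for the 8 and -0.15 and -0.09 for the 2. Split by the WT list, the values lay apart in H3K4me1 MUT minus EV and overlapped in the other 5 sets of fold changes. In H3K4me1 MUT minus EV the 5 genes with a WT peak had -0.00 to 0.29 and the 5 without one -0.33 to -0.05. After subtraction of each chromosome's median these values overlapped as well. They ran from -0.05 (Ash2l) to 0.15 (Setd1a) with a peak and from -0.31 (Setd1b) to 0.02 (Kmt2d) without. The part of the chromosome-wide shift in this split was not tested. For H3K4me1 WT minus MUT, which uses the same MUT libraries, the groups met at 0.02, with -0.22 to 0.02 for the genes with a peak and 0.02 to 0.20 for those without. For H3K4me2 WT minus MUT the genes with a peak had -0.07 to 0.18 (median 0.01) and those without 0.08 to 0.20 (median 0.14). In H3K4me2 MUT minus EV they had -0.15 to 0.12 and -0.16 to -0.04. These are differences between 5 genes and 5 with no test, and no single gene passed. Of the partners, Cxxc1 and Paxip1 had a WT peak and Hcfc1, Hcfc2, Paxip1 and Pagr1a a MUT peak, 2 and 4 of 11 beside 7.8% and 28.4% of all annotated genes.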

How the data were processed

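The genes and lists were chosen with earlier results of these data known. The deposited counts are unscaled reads per start-site window, with 1 row for each Entrez gene ID, made with Subread and featureCounts per the submitters' processing notes. Their name gives 5 kb around the start, without window coordinates. The deposited peak lists hold fold enrichment, -log10 q, a score and a summit per peak, from MACS2 per the submitters' processing notes. The builds are GRCm38 and mm10 per the same notes. Versions, the MACS2 control and its threshold are not given in the sources used here.

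Rows with no read (20) and rows equal to an earlier row (50) were left out. Each mark was fitted over the 3 constructs with edgeR's quasi-likelihood test (edgeR 4.0.16, R 4.3.3), with TMM, filterByExpr and Benjamini-Hochberg adjustment over all windows, two-sided, at 0.05. WT libraries were tested against IgG in the same way with column totals as library sizes. Within-replicate values are differences of log2(TMM-scaled CPM + 0.1). DESeq2 1.42.0 was an alternative, and the code was tested on simulated data. All 10 members, the 11 partners (those that passed, or the 2 with the smallest p), and the 3 windows most alike were named. Promoters of Kmt2a, Kmt2d and Men1, which no peak overlaps, are not printed.

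In H3K4me1 same-numbered libraries deviated together in every pair (r 0.20 to 0.65 over 17738 windows), which meets the check for pairing. Libraries numbered 2 and 3 correlated as much with each other (r 0.22 to 0.53), so the check does not separate these numbers, and the labels give no source for a pairing. The choice to sum EV H3K4me1 replicates 2 and 3 followed from their agreement.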

Additional observations from a re-analysis of the deposited data

How the results depend on the processing

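No alternative made a member pass between constructs except leaving out MUT H3K4me2 replicate 1, described above. In H3K4me2 WT against EV, MUT against EV and WT against MUT the windows passing were 74, 6 and 48 with DESeq2, and 89, 19 and 117 with replicates 2 and 3 summed and a batch term. In H3K4me1 WT against EV and WT against MUT they were 4 and 29 with DESeq2, and the batch term gave 22, 1 and 19 over the 3 comparisons in the same order. The replicate block gave 5, 0 and 12 windows in H3K4me2 and 2, 0 and 2 in H3K4me1, and no member passed under it in any comparison of constructs or lost its call over IgG. In H3K4me2 same-numbered libraries did not deviate together in every pair (r -0.09 to 0.50 over 16891 windows, 0.10 to 0.50 for replicate 1), so the numbers did not meet the check, although the replicate 1 libraries stood apart from the others.

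Leaving out 1 library gave 0 to 719 windows in H3K4me2 WT against EV, the most without EV replicate 1, 0 to 620 in MUT against EV and 0 to 4289 in WT against MUT, both the most without MUT replicate 1. Without EV replicate 1 MUT against EV had 407. Without WT replicate 1 WT against EV had 176 and WT against MUT 247. The H3K4me1 ranges were 0 to 2 in WT against EV and 0 to 211 in WT against MUT, the most without MUT replicate 1. The member windows passing ranged from 0 to 1 in H3K4me2 MUT against EV and from 0 to 5 in WT against MUT.

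The members' median log2 fold change in H3K4me2 ranged with 1 library left out from -0.22 to 0.0051 in MUT against EV and from 0.036 to 0.26 in WT against MUT, and in H3K4me1 MUT against EV from -0.10 to 0.16. With column totals in place of TMM it was -0.031 in WT against EV, a change of sign, and 0.029 in WT against MUT. Within replicate 1 and within replicates 2 and 3 the H3K4me2 medians were -0.010 and 0.086 in WT against EV, 0.10 and -0.17 in MUT against EV, and -0.11 and 0.23 in WT against MUT, and within replicate 1 the H3K4me1 median in WT against MUT was -0.25. After subtraction of the chromosome's median it was 0.15 in H3K4me2 WT against MUT. Without EV replicate 1, Setd1b and Kmt2a changed sign in H3K4me1 by more than the SE of the main fit, and neither passed. Smaller changes of sign, as at Setd1b in WT against EV with the replicate block (0.11), are not listed. With 1 library left out Setd1b ranged from -0.21 to 0.41 in WT against EV and from -0.89 to 0.21 in MUT against EV, and Kmt2a from -0.35 to 0.24 in MUT against EV. Over IgG the H3K4me1 ratio of Ash2l became 0.30 with TMM. For these shifts the cause was not tested.

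With a -log10 q of at least 5 the WT list had a peak at 3 members (Rbbp5, Ash2l and Men1) in place of 5. With a distance of 2 kb the MUT list had 6 and with 10 kb 9, within 1.5 times the main count of 8. The balance of the marks moved by less than its spread with pseudocounts of 0.1 and 5. Rbbp5 shares its window region with 6030442K20Rik, whose start is 303 bases away, and Kmt2c shares its window region with 4831440E17Rik, whose start is 1014 bases away.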
